A study of Mus musculus with 6 samples.

Results

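Long intergenic noncoding RNAs (lincRNAs) are transcripts from their own genes between protein-coding genes that are not known to be translated. Of 985 autosomal rows that the deposited count table classes as lincRNA, 34 held at least 60 counts summed over 6 libraries, and these 34 genes are described here, out of 21606 genes in the table. The members were chosen by their summed count, so their order by level is a description and not a finding. The 3 lincRNA rows over 60 counts on the sex chromosomes, Ftx, Gm47283 and Xist, are not among them. Gas5, a well-known host gene of small nucleolar RNAs (snoRNAs), is classed as a processed transcript in the table, so it is used only for comparison.

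RNA came from bone marrow cells of wild-type C57BL/6 mice, a common inbred strain, that were selected for high activity of aldehyde dehydrogenases, which enriches for progenitor cells. Each sex gave 3 libraries, with no treatment or allele named and no age given. Nothing in the labels ties a replicate to its own animal, so every p-value rests on differences among these samples alone, and those may be technical. The assay was BRB-seq, in which cells are lysed in bulk, an oligo-dT primer carries a sample barcode, and reads come mostly from the 3′ ends of RNAs. In bulk RNA, fewer cells of a type and less RNA per cell cannot be told apart.

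Most lincRNAs are spliced and polyadenylated like messenger RNAs but are present at low levels, and only a small number have a described function. Malat1 and Neat1 are nuclear: Malat1 lies in nuclear speckles and ends not in a poly(A) tail but in a triple helix left when an enzyme cuts off a small tRNA-like RNA, while Neat1 builds paraspeckles. Genes of the Snhg series carry snoRNAs in their introns. The snoRNAs guide methylation or pseudouridylation of ribosomal and other RNA, and the spliced exons are often removed by nonsense-mediated decay, a pathway tied to translation. Several of these host genes start with a run of pyrimidines as ribosomal protein genes do, a motif that links translation to growth signals.

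The stretches below show what the oligo-dT primer of the assay could meet inside the 2 lincRNAs with the most counts, with the A run in capitals. They come from the longest GENCODE M21 transcript of each gene. In Malat1 (chr19:5795690-5802672, minus strand, GRCm38, 1 exon in the longest transcript) the run of 12 A lies at bases 6674 to 6685 of 6983 and stands just before the tRNA-like RNA.
Malat1: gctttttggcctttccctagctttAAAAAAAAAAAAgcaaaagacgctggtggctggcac
Gm31458: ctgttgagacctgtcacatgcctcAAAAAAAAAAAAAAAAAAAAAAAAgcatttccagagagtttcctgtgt
In Gm31458 (chr15:28053099-28118452, minus strand, 6 exons), an RNA with no described role, the run of 24 A lies at bases 1205 to 1228 of 1308. A run of at least 12 A was present in 8 of the 34 members (23.5%) and in 80 of the 951 other autosomal lincRNA rows (8.41%), with a median longest transcript of 1781.5 and 1509 bases. The other members with one were Gm20342, Gm49797, Gm47230, Lockd, 2700038G22Rik and Snhg12. A table of counts per gene does not show where the reads lie, so priming at these runs was not tested.

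The snoRNAs inside the lincRNAs set the host genes apart from the other members. By symbol 3 members were snoRNA hosts, Snhg12, Snhg6 and Snhg15. By annotation 5 were, since Epb41l4aos holds the snoRNA Gm23639 and 2700038G22Rik holds Snord93. Snhg12 holds 5 snoRNA genes (Snora16a in 2 annotated copies, Snora44, Snora61 and Snord99), Snhg6 holds Snord87 and Snhg15 holds Snora9. Box C/D snoRNAs, which guide methylation, are shown from GENCODE M21 with the bases GATGA of box C and CTGA of box D in capitals.
Snord99: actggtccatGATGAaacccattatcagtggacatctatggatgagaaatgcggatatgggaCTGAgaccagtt
Snord87: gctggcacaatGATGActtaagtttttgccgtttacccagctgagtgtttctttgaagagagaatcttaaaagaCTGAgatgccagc
Snord93: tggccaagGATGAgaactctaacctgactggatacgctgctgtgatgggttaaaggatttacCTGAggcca
Box H/ACA snoRNAs, which guide pseudouridylation, are shown with the bases ACA near the 3′ end in capitals.
Snora61: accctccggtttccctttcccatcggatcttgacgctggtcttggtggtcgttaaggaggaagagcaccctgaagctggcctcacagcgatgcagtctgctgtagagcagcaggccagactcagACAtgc
Snora9: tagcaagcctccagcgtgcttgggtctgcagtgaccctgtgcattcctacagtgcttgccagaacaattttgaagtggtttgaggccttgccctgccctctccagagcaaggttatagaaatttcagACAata

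Start regions of host genes and of Oip5os1 are shown because the members with a snoRNA inside mostly lay on the same side of 0 between the sexes. They are RefSeq starts on GRCm38.p6, 30 bases before and 30 from the start, with the longest run of C and T within 10 bases of the start in capitals. Snhg12 (chr4:132308648-132308707, plus strand), 2700038G22Rik (chr5:23850567-23850626, plus strand), Oip5os1 (chr2:119594266-119594325, plus strand) and Gas5 (chr1:161035136-161035195, plus strand) had runs of 9, 7, 6 and 6 bases. Snhg15 (chr11:6528731-6528790, minus strand) had a run of 4 bases.
Snhg12 start: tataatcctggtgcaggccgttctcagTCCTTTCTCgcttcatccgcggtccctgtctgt
2700038G22Rik start: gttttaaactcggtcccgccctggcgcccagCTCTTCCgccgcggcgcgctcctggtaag
Oip5os1 start: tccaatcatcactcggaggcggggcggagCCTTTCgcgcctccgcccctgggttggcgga
Gas5 start: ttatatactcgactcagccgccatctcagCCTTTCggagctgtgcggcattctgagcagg
Snhg15 start: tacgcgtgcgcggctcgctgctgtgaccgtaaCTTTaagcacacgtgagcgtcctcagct
A run of at least 5 pyrimidines, read on the gene's own strand, was found for 11 of the 21 members with a RefSeq start (52.4%), for 38.3% of all 27025 genes with a start and for 60.3% of ribosomal protein symbols. Snhg6 and Epb41l4aos were not matched to a start. Runs in processed transcript hosts not shown were 9 in 2410006H16Rik, 7 in 1110038B12Rik and Snhg8, and 6 in Snhg1 and Snhg17. In Zfas1 and Snhg5 they were 4 and 3. A link between these runs and the side of 0 was not tested. A match describes these letters only.

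Total counts ran from 679724 to 1475224 per library, and every male library was shallower than every female one. Markers of early myeloid cells were abundant in all libraries (Mpo, a granule enzyme, at 7639 CPM in females and 6332 in males). Their sum ran from 15283.4 to 15963 CPM in females and from 13718.5 to 14687.8 in males. Of 9 tested, 0 were called by edgeR, DESeq2 or limma-voom, and 4 lay above 0 and 5 below. Those of T and natural killer cells were low, summing to between 129 and 170 CPM, nearly all from Nkg7. Summed markers of several other cell types also differed between the sexes. The summed CPM of erythroid markers ran from 101 to 125 in females and from 237 to 386 in males, of B and plasma cell markers from 8092 to 9356 and from 6310 to 7355, and of megakaryocyte markers from 29.1 to 35.4 and from 47.8 to 118. Of these, 2 of 3 tested erythroid markers (Car1 and Car2) and the 1 tested megakaryocyte marker (Pf4) rose in males, calls that edgeR, DESeq2 and limma-voom shared. Mast cell and basophil markers summed to between 144 and 168 CPM in females and between 191 and 239 in males. Of 5 tested, 1 (Cpa3) was called higher in males by the same tools. This list was split, with 4 above 0 and 1 below at -0.50, and all 5 had an unadjusted p under 0.05 in edgeR. Of 7 B and plasma cell markers, 1 (Ms4a1) was called lower in males by edgeR and 0 by DESeq2 and limma-voom. Stromal markers ran from 184 to 230 CPM in females and from 214 to 333 in males, with 0 of 4 called by any of these tools and 3 at an unadjusted p under 0.05 in edgeR. Lung epithelium markers ran from 162 to 229 in females and from 249 to 522 in males, with 0 of 6 called by edgeR, DESeq2 or limma-voom and 4 at an unadjusted p under 0.05 in edgeR. Immediate-early genes, which respond to handling of cells, summed to between 4130 and 4602 CPM in females and between 5411 and 7430 in males. Of 21 tested, edgeR called 13, all higher in males, DESeq2 called 12 and limma-voom 13. Among all tested genes, edgeR called 0.579%, and 11.3% had an unadjusted p under 0.05. The part of these markers in the lincRNA results was not tested.

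The 34 lincRNAs held 11721 counts, 74.7% of all autosomal lincRNA counts but only 0.184% of all counts in the table. They lay on 18 chromosomes and their totals ran from 60 to 3406, with a median of 178. Malat1 held 29.1% of the members' counts, and Malat1 and Gm31458 together held 46.3%. Below the members, 850 rows had 1 to 9 counts and 101 had 10 to 59, and these rows held 10.4% and 14.9% of the lincRNA counts. At the edge of the choice, Gm49797, Gm17745 and Gm46430 were just inside with 66, 63 and 60 counts, and Gm36161, Gm49207 and Mir17hg, the host of the miR-17 cluster, were just outside with 55, 53 and 53.

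Levels are given as CPM, the count divided by the TMM-scaled library size in units of 1000000, and, for comparing genes, per kilobase of annotated exon. By CPM the 10 highest were Malat1, Gm31458, Snhg12, Oip5os1, Neat1, Gm10076, Snhg6, AU020206, Gm28875 and Gm47230, with means over 6 libraries from 515 down to 44.6 CPM. Per kilobase the order changed: Gm31458 was first at 259 CPM per kilobase, Gm10076 second at 185, then Epb41l4aos at 94.5, Malat1 at 73.8 and Snhg6 at 48.1. Neat1, with 20771 bases of exon, moved from place 5 to place 29, at 3.50 CPM per kilobase. The 2 orders shared 6 of their first 10 genes. Since reads come mostly from 3′ ends, dividing by exon length can understate long genes.

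**Figure D1:**
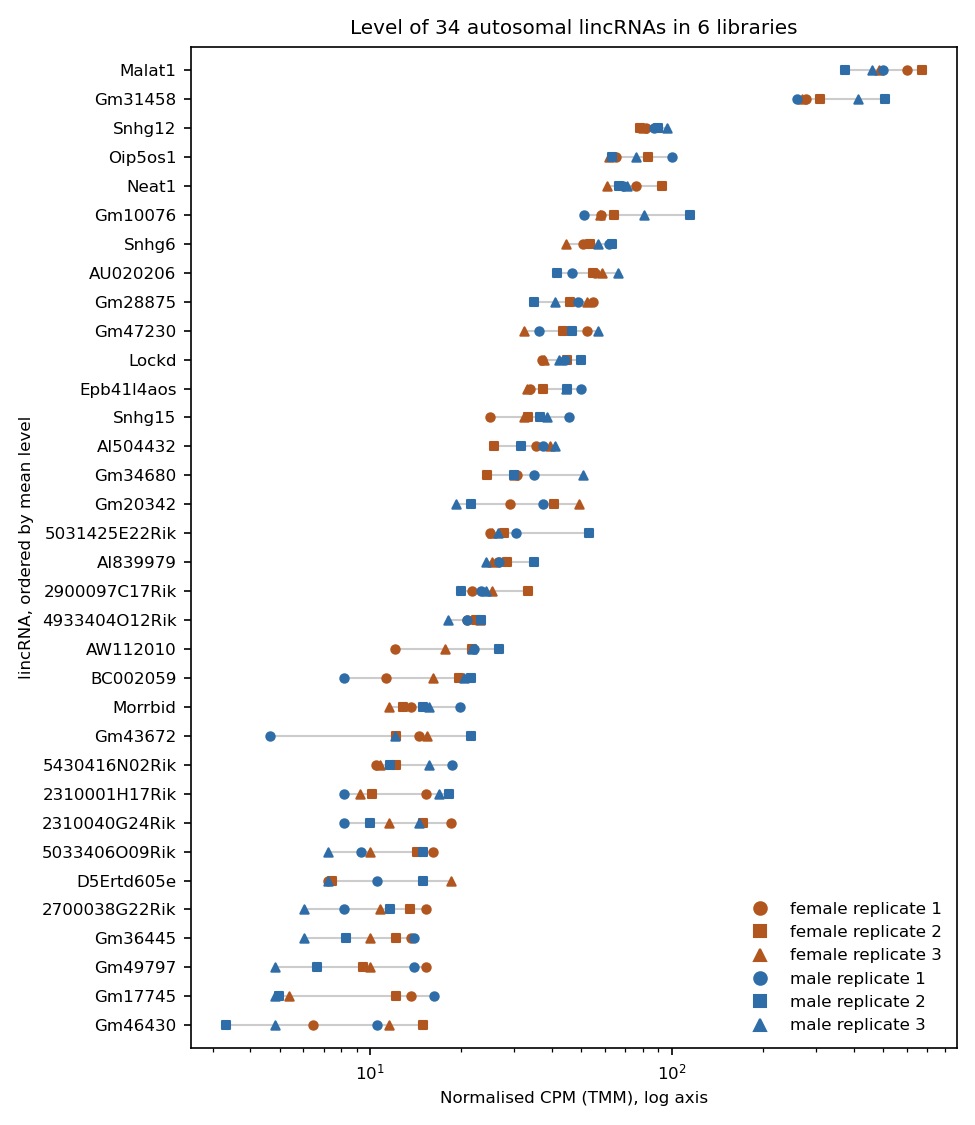
Normalised CPM (TMM-scaled, log axis) of the 34 lincRNAs, ordered by mean level, with 1 point per library. Malat1 and Gm31458 lie between 260 and 675 CPM in all 6 libraries, above every other lincRNA, which all lie at or below 115 CPM.

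Between the sexes, none of the 34 lincRNAs was called different. Differences (male minus female) were tested by edgeR's quasi-likelihood fit at an adjusted p of 0.05 (Benjamini-Hochberg, across 8460 tested genes). That test called 0.579% of the tested genes, 0.426% higher in males and 0.154% higher in females. These were 36 and 13 genes, against 29 and 23 with library size scaling. All 34 members passed the filter on low counts. An unadjusted p under 0.05 was reached by 5 members, Malat1, Gm31458, Epb41l4aos, Gm20342 and Gm34680, where 11.3% of tested genes reached it, and DESeq2 and limma-voom also called 0 members. Log2 fold changes lay above 0 for 18 members and below 0 for 16 (49.3% of tested genes lay above 0). Their median was 0.04 and their range -0.76 to 0.48. The smallest adjusted p from edgeR was 0.248, for Malat1.

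Libraries of the 2 sexes did not overlap for 6 members, all with the males above: Snhg12, Snhg6, Snhg15, Epb41l4aos, AW112010 and Morrbid. Among all tested genes, males lay above in 7.57% and females above in 8.03%. This count depended on the scaling: with CPM by library size alone, only Epb41l4aos kept its males above, 4933404O12Rik and 2700038G22Rik had their females above, and 16 members lay above 0 and 18 below. Library size scaling moved the median log2 fold change of all tested genes from -0.003 to -0.09.

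**Figure D2:**
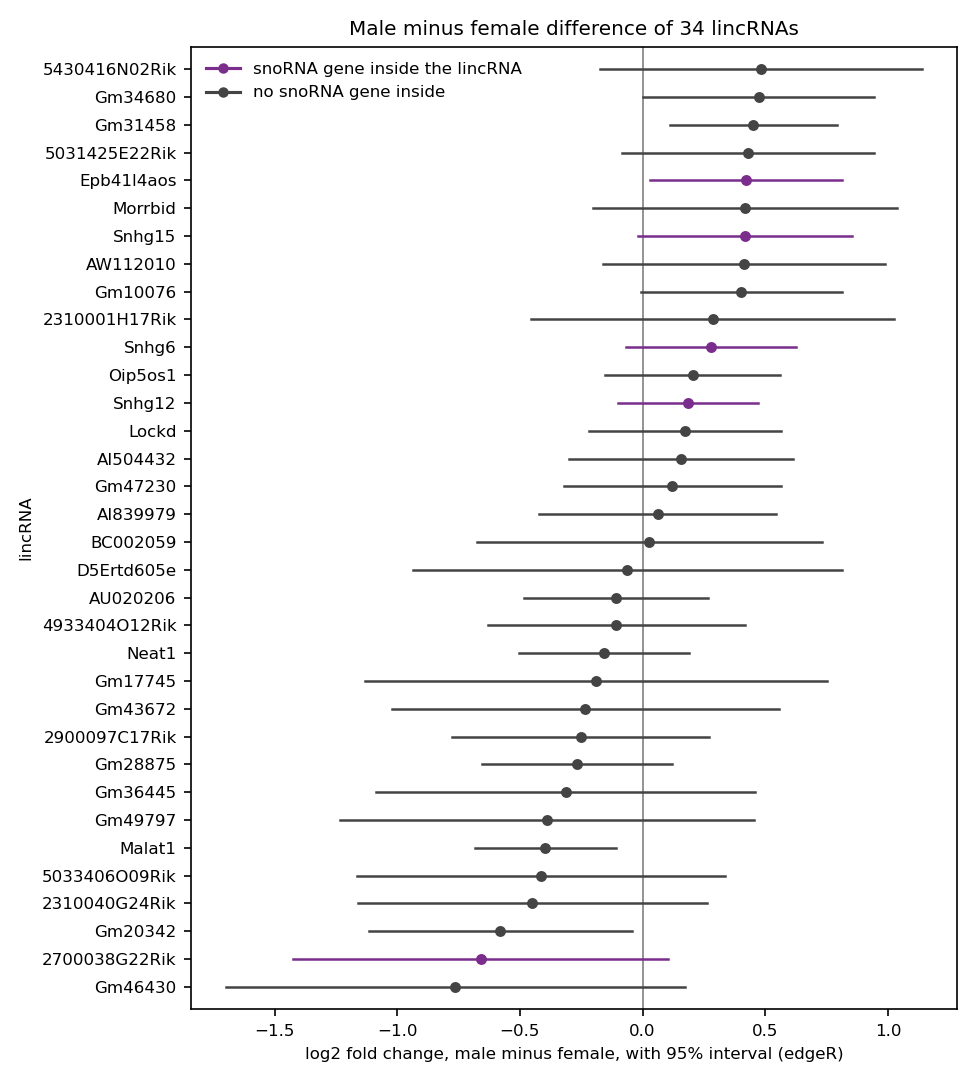
Log2 fold change of each lincRNA, male minus female, with its 95% interval from edgeR; positive values are higher in males, and purple marks members with an annotated snoRNA gene inside. The intervals of Malat1, Gm31458, Epb41l4aos, Gm20342 and Gm34680 lie on 1 side of 0, and of the 5 members with a snoRNA gene inside, 4 lie above 0 and 2700038G22Rik lies at -0.66.

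Malat1, the nuclear speckle RNA, read 600, 675 and 485 CPM in the female libraries and 498, 374 and 460 CPM in the male ones. The groups overlapped because male replicate 1 lay just above female replicate 3. The mean was 586 ± 95.6 CPM (SD, n = 3) in females and 444 ± 63.7 in males, a log2 fold change of -0.40 (SE 0.14, 95% interval -0.68 to -0.11), which did not pass edgeR's quasi-likelihood test (adjusted p = 0.248). The neighbouring Neat1, the RNA scaffold of paraspeckles (chr19:5824708-5845478, minus strand), read 75.7, 92.8 and 60.8 CPM in females and 68.7, 66.5 and 71.1 CPM in males. Its male libraries all lay inside the female range, and its log2 fold change was -0.16 (95% interval -0.50 to 0.19). Of the 7 paraspeckle protein genes tested none was called by edgeR, DESeq2 or limma-voom, and 3 had an unadjusted p under 0.05 in edgeR; the most abundant, Hnrnpk and Sfpq, differed by -0.08 and -0.12 on the log2 scale.

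Gm31458 read 278, 310 and 269 CPM in females and 260, 507 and 413 CPM in males. Male replicate 1 was the lowest of all 6 libraries and male replicates 2 and 3 the highest. The log2 fold change was 0.45 (SE 0.16, 95% interval 0.11 to 0.79, adjusted p = 0.272 in edgeR's quasi-likelihood test).

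Gm10076 (chr14:105681828-105682211, plus strand, 1 exon) is annotated as a lincRNA but nearly matches Rpl41, the gene of a very small ribosomal protein. Its 384-base transcript had 381 identical bases, 2 mismatches and 0 gaps against Rpl41, and 82.2% of its 31-base words occur there. The stretch below shows that the whole Rpl41 reading frame, in capitals, stands in it unchanged.
Gm10076: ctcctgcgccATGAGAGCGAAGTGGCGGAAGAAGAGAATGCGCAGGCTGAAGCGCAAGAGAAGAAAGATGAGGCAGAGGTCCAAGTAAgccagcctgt
Reads of Rpl41 and Gm10076 could therefore be exchanged in counting, and the level of Gm10076 is uncertain. It read 58.0, 64.3 and 57.7 CPM in females and 51.2, 115 and 80.7 CPM in males, with male replicate 1 lowest and male replicate 2 highest. The log2 fold change was 0.40 (SE 0.20, 95% interval -0.01 to 0.81, edgeR adjusted p = 0.445). As a share of Rpl41, Gm10076 stayed between 4.61% and 5.30% in all 6 libraries.

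Gm31458 also kept a nearly fixed ratio to Rpl41. Rpl41 read 1185, 1265 and 1182 CPM in females and 1105, 2167 and 1750 CPM in males, and Gm31458 lay between 22.7% and 24.5% of it in every library. Gm31458, Gm10076 and Rpl41 put the 6 libraries in the same order, and 0.544% of tested genes shared that order. This order was looked at after the values were seen. By exact 31-base words the transcript of Gm31458 shows no such match: the largest share found in another gene was 0.782%, in Tm7sf2. Exact words can miss a match with many mismatches, and Gm31458 was not aligned to Rpl41.

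**Figure D3:**
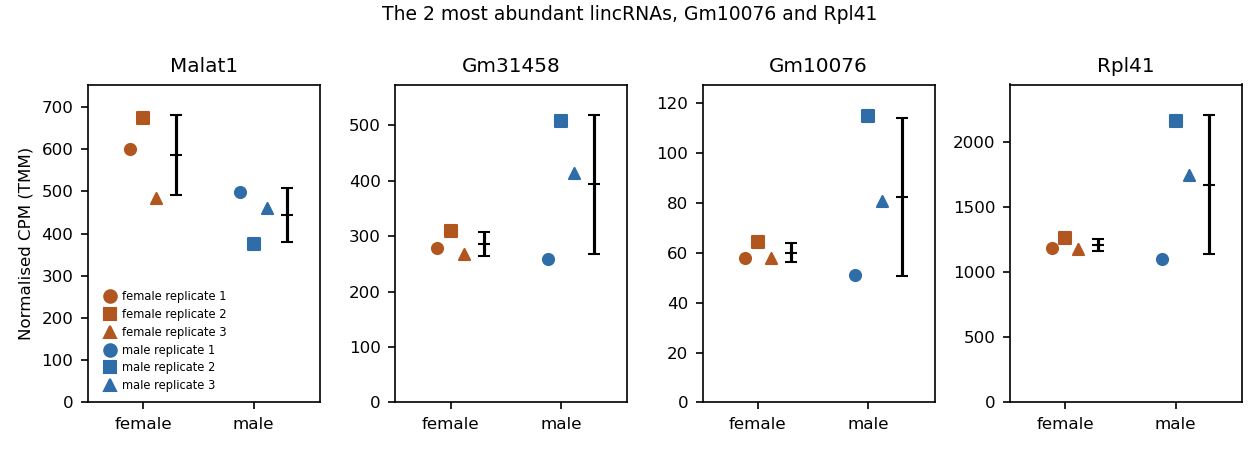
Normalised CPM of Malat1, Gm31458, Gm10076 and the ribosomal protein gene Rpl41 in each library, with bars for the mean and SD of 3 libraries; each panel has its own axis from 0. In the panels of Gm31458, Gm10076 and Rpl41 male replicate 1 is lowest and male replicate 2 highest, and in that of Malat1 male replicate 2 is lowest.

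The calls of Malat1, Gm31458 and Gm10076 depended on male replicate 1. Without it, edgeR's quasi-likelihood test called Malat1 lower in males (-0.48, adjusted p = 0.0293), Gm31458 higher (0.68, adjusted p = 6.26e-04) and Gm10076 higher (0.67, adjusted p = 0.0190), and no other member. Without male replicate 2, the library with the highest Gm31458 and Gm10076, their log2 fold changes were 0.24 and 0.13 (edgeR adjusted p = 0.749 and 0.941). The share of all tested genes called was 4.62% without male replicate 1, in place of 0.579% with all 6 libraries. Ribosomal protein genes took 13.02%, 13.5% and 12.4% of counts in females and 13.3%, 17.5% and 15.6% in males. Male replicate 2 was highest in this sum too, but male replicate 1 lay within the female range and was not lowest. With all 6 libraries, log2 fold changes of all 78 tested ribosomal protein genes lay above 0 (76 with library size scaling), with a median of 0.38. None was called by edgeR, DESeq2 or limma-voom, and 55 had an unadjusted p under 0.05.

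Most snoRNA hosts lay slightly higher in the male libraries, by less than the test could call. Snhg12 (chr4:132308623-132311024, plus strand) read 82.1, 78.6 and 80.0 CPM in females and 87.4, 89.8 and 96.4 CPM in males. All male libraries lay above all female ones, by little: 80.3 ± 1.79 CPM (SD, n = 3) against 91.2 ± 4.68. The log2 fold change was 0.19 (SE 0.14, 95% interval -0.10 to 0.47, edgeR adjusted p = 0.665). Its SD within a sex, 0.06 on the log2 scale, was at percentile 1.36 of tested genes. Those of Epb41l4aos and Snhg6 were at 6.03 and 10.6, and that of Snhg15 at 36.3. These SDs rest on 3 libraries per sex, with 54 to 116 counts of Snhg12 in each, and were not tested against counting error. At such counts a low SD cannot be read as a steady level of these genes.

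Snhg6 (chr1:9941959-9944118, minus strand) read 50.7, 53.5 and 44.6 CPM in females and 61.7, 63.2 and 56.6 CPM in males, a log2 fold change of 0.28 (SE 0.17, 95% interval -0.07 to 0.62). Its exons overlap those of Mcmdc2 on the opposite strand by 127 bases, and Mcmdc2 had 7 counts in all. The strand setting of the counting is unknown here, so reads of such pairs cannot be told apart; Malat1, Lockd, Morrbid and 2310001H17Rik also overlap a predicted gene on the opposite strand. Snhg15 (chr11:6525591-6528760, minus strand) read 25.0, 33.2 and 32.3 CPM in females and 45.4, 36.6 and 38.6 CPM in males, a log2 fold change of 0.42 (SE 0.21, 95% interval -0.02 to 0.85). In both genes the lowest male library lay just above the highest female one.

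Epb41l4aos, a short host RNA that starts beside the gene Epb41l4a, read 33.8, 37.3 and 33.1 CPM in females and 50.1, 44.9 and 44.6 CPM in males. It was the only member whose males stayed above under both TMM and library size scaling. Its means were 34.7 ± 2.22 and 46.5 ± 3.09 CPM (SD, n = 3), its log2 fold change 0.42 (SE 0.19, 95% interval 0.03 to 0.81), and its adjusted p in edgeR's quasi-likelihood test 0.388. Epb41l4a itself held 4 counts. The remaining host by annotation, 2700038G22Rik, went the other way, at 15.3, 13.5 and 10.8 CPM in females and 8.15, 11.6 and 6.02 CPM in males. Its libraries overlapped, and its log2 fold change was -0.66 (95% interval -1.42 to 0.10).

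The 5 members with a snoRNA gene inside had a median log2 fold change of 0.28, with 4 above 0 under TMM, RLE, upper-quartile and library size scaling. The 29 without one had a median of -0.06 with 14 above 0. These medians describe members chosen with the results known and carry no test. By symbol, the 3 host members took a share of counts of 0.0163% ± 0.000343 (SD, n = 3) in the female libraries and 0.0183% ± 0.00159 in the male ones, and the 31 others took 0.171% ± 0.0148 and 0.160% ± 0.00437. Among the others, Malat1 alone took 0.0595% in females and 0.0425% in males, and Gm31458 took 0.0290% and 0.0368%. The 32 members without these 2, hosts included, took 0.0989% and 0.0985%. For all members together the exact 95% binomial interval of a library's share reached at most 0.0101 percentage points to either side. For the 3 host members it reached at most 0.00338 percentage points, and their difference between the sexes was 0.00201. The interval is that of a library alone, while the difference is between means of 3 libraries. Such an interval therefore cannot decide whether the difference exceeds counting error.

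Host genes outside the lincRNA class showed the same side of 0. Of 24 autosomal processed transcript rows with at least 60 counts, 9 hold a snoRNA gene and 15 do not. Of the 9, 8 lay above 0, with a median of 0.32 on the log2 scale; of the 15, 6 lay above 0, with a median of -0.12. None of the 24 was called by edgeR, DESeq2 or limma-voom, and 6 of the 9 and 1 of the 15 had an unadjusted p under 0.05 in edgeR. Gas5, the largest, read 686, 665 and 522 CPM in females and 757, 815 and 749 CPM in males, with a log2 fold change of 0.31. Zfas1 and Snhg8, at 0.49 and 0.48, were the 2 of the 9 whose males lay above with either scaling, and 4 further ones did so with TMM only.

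**Figure D4:**
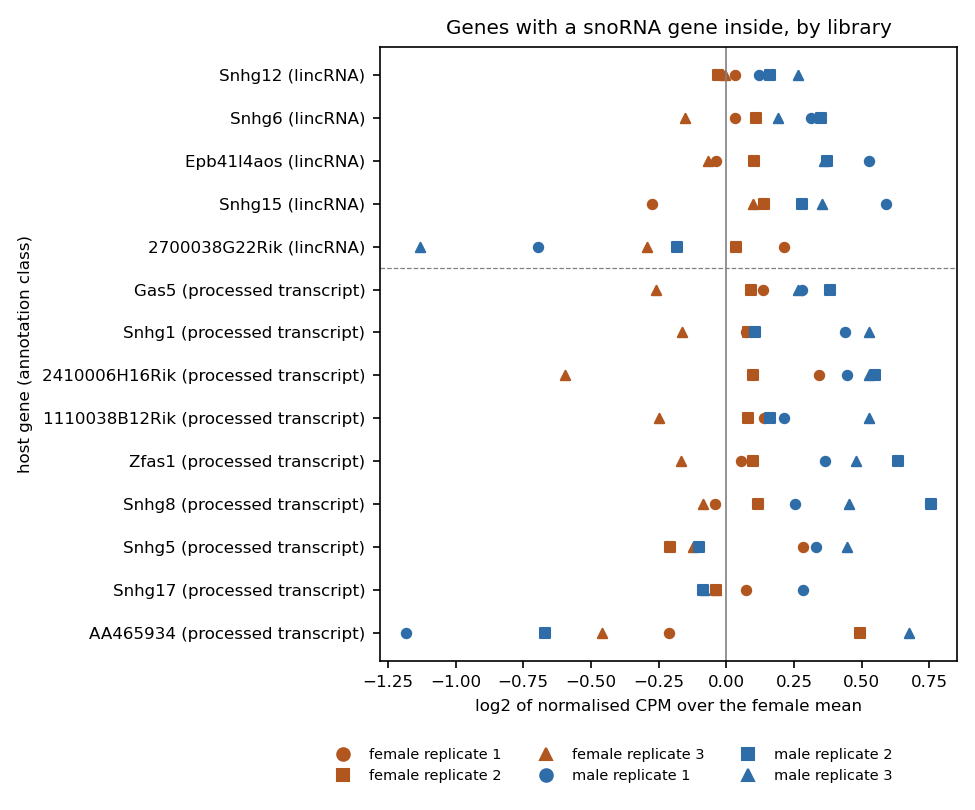
Log2 ratio of normalised CPM (TMM) to the female mean for the 5 lincRNAs and 9 processed transcripts with an annotated snoRNA gene inside, 1 point per library, lincRNAs above the dashed line. The male libraries (blue) lie to the right of all female ones in 4 of the 5 lincRNAs, a count that is 1 of 5 with library size scaling; the lowest points of 2700038G22Rik, Snhg17 and AA465934 are male, as is the highest of AA465934.

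Genes of the machinery around these hosts did not pass the test. Of 12 snoRNP core protein genes tested none was called, with a median log2 fold change of 0.02; the most abundant were Nop58 and Nop10, at 0.26 and 0.25. Of 15 nonsense-mediated decay factors none was called, with a median of -0.01; Magoh and Eif4a3 of the exon junction complex stood at 0.29 and -0.07. Of 15 further translation genes with a pyrimidine start none was called, 12 lay above 0 and the median was 0.15, with Rack1 at 0.38 and Pabpc1 at -0.15. DESeq2 and limma-voom called none either, and counts of genes at an unadjusted p under 0.05 in edgeR were 2, 2 and 4 in these lists.

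Oip5os1, known as Cyrano, is a cytoplasmic RNA with a nearly complete match to miR-7 that triggers decay of that miRNA. The mature mmu-miR-7a-5p from RefSeq is shown with its seed in capitals, and the Oip5os1 site with its paired bases in capitals.
mmu-miR-7a-5p: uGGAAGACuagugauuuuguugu
Oip5os1 site: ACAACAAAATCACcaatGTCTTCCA
At bases 2935 to 2959 of the 8300-base transcript, 13 bases pair with the 3′ part of the miRNA and 8 with its 5′ part, with 4 bases between; no other member had such a site. Oip5os1 (chr2:119594297-119607502, plus strand) read 65.2, 83.3 and 61.6 CPM in females and 100.2, 63.2 and 75.9 CPM in males. Male replicate 1 was highest, and the groups overlapped. The log2 fold change of 0.20 (95% interval -0.15 to 0.56) was near 0 without that library. Of 7 tested microRNA processing genes none was called by edgeR, DESeq2 or limma-voom and 1 had an unadjusted p under 0.05; Xpo5 and Ago2 stood at -0.28 and -0.22.

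2900097C17Rik, the mouse Norad, is a cytoplasmic RNA that binds Pumilio proteins through repeats of TGTANATA. It held 11 copies of that motif on its own strand, 2.24 per kilobase. The next member by copies, Neat1, held 4, and the next per kilobase, AW112010, held 1.30 per kilobase. The closest pair, at bases 2442 to 2458 of 4915, is shown with both motifs in capitals.
2900097C17Rik: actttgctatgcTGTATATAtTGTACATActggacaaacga
It read 21.7, 33.2 and 25.4 CPM in females and 23.3, 19.96 and 24.1 CPM in males, with overlapping libraries and a log2 fold change of -0.25 (95% interval -0.78 to 0.27). Gm7292 shares 43.9% of its 31-base words and held 2 counts in all.

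Morrbid, an RNA of myeloid cells that represses the neighbouring cell death gene Bcl2l11, read 13.7, 12.9 and 11.5 CPM in females and 19.8, 14.97 and 15.7 CPM in males. Its males lay above its females with TMM scaling but not with library size, and the log2 fold change was 0.42 (95% interval -0.20 to 1.04). Bcl2l11, 15772 bases away, was at 14.2 CPM and differed by -0.30 (SE 0.34). AW112010, an RNA of activated immune cells, read 12.1, 21.7 and 17.7 CPM in females and 22.1, 26.6 and 21.7 CPM in males. Its highest female and lowest male library were close, at 21.67 and 21.69 CPM, so its groups were barely apart. The list of lncRNAs with a described role, members and others, also held the coding gene Bcl2l11. Of its 12 tested genes none was called by edgeR, DESeq2 or limma-voom, and 3 had an unadjusted p under 0.05 in edgeR.

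Several of the largest differences among members with no described role were in genes with few counts. Gm46430, the smallest member, had 6.44, 14.9 and 11.5 CPM in females and 10.5, 3.33 and 4.82 CPM in males, which overlapped, with a log2 fold change of -0.76 (95% interval -1.70 to 0.17) that ran from -1.39 without male replicate 1 to -0.53 without male replicate 2. Gm20342 had 29.0, 40.6 and 49.3 CPM in females and 37.3, 21.6 and 19.3 CPM in males. Male replicate 1 again lay among the females, and the log2 fold change was -0.58 (95% interval -1.12 to -0.04, edgeR adjusted p = 0.387). It was -0.97 without male replicate 1 and -0.38 without male replicate 3. The other large negative values were -0.45 for 2310040G24Rik and -0.41 for 5033406O09Rik. On the positive side 5430416N02Rik stood at 0.48, Gm34680 at 0.47 and 5031425E22Rik at 0.43. Gm34680 and 5031425E22Rik each had 1 high library, male replicate 3 at 50.6 CPM and male replicate 2 at 53.2 CPM, with their other libraries at or below 34.9 and 30.3 CPM. Without these libraries their log2 fold changes were 0.22 and 0.12. AU020206, Gm28875 and Gm47230, the other abundant unnamed members, differed by -0.11, -0.27 and 0.12 with overlapping libraries.

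LincRNAs often start beside a coding gene, and 16 of the 34 lay within 5000 bases of their nearest one. That neighbour was tested for 24 members; none was called by edgeR, DESeq2 or limma-voom, and 6 had an unadjusted p under 0.05 in edgeR. The neighbour had the higher CPM in 17 of these 24 pairs, with neighbours between 13.7 and 295 CPM, and both genes lay on the same side of 0 in 11. Lockd lies 3579 bases from Cdkn1b, a cell cycle inhibitor; Lockd stood at 42.6 CPM and 0.17 on the log2 scale, and Cdkn1b at 99.5 CPM and 0.05. 5031425E22Rik lies 172 bases from Kmt2e, a chromatin regulator, at 31.4 CPM against 113 CPM. Snhg12 lies 739 bases from Trnau1ap, whose product acts in selenoprotein synthesis, and the pair stood at 0.19 and 0.27.

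Among members with fewer than 600 counts, the spread between replicates was largest where counts were lowest. Members with 60 to under 120 counts had a median SD within a sex of 0.49 on the log2 scale, where protein-coding genes of the same totals had 0.36. From 120 to under 300 counts the medians were 0.24 and 0.26, and from 300 to under 600 counts they were 0.22 and 0.20. Malat1 and Gm31458, with over 600 counts, had SDs of 0.23 and 0.36, where coding genes had a median of 0.15. Male replicate 2, the shallowest library, was the highest one for 11 of the 34 members and for 26.1% of all tested genes.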

How the data were processed

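The file the authors deposited holds raw counts, as whole numbers per gene that had not been normalised. Per the labels' protocols, BRB-seq reads carried a molecular identifier and a barcode in 1 read and an 81-base insert in the other. Per the submitters' processing notes, the tools were DESeq2, UMI-tools, featureCounts 2.0.1, HISAT2 2.2.1 and Trim Galore 0.6.7, with no role given, and the builds GRCm38 and GRCh38. Whether molecular identifiers were collapsed and whether strand was used are not given in the sources used here. Counts can therefore include PCR copies, and genes that overlap can share reads. Intervals of shares cover counting error only.

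Samples were grouped by the sex in their titles. Genes were kept by filterByExpr (minimum count 10, minimum total 15; 8460 kept), scaled by TMM and tested with edgeR 4.0.16 in R 4.3.3 (quasi-likelihood F test, no covariate, Benjamini-Hochberg over all tested genes, threshold 0.05; common coefficient of variation 0.102). All 34 identifiers matched GENCODE M21 (GRCm38), where 33 are classed as lincRNA and 2 symbols differ. The alternatives tried were scaling by RLE, by upper quartile or by library size, a stricter filter or none, DESeq2 1.42.0, limma-voom (limma 3.58.1), a replicate block and leaving out each library. Leaving mitochondrial genes out was added after seeing the data. The steps were tested on simulated data.

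The members and gene lists were chosen with earlier results of these data known. The rule for named genes took the Snhg members, the 10 highest, the 5 largest differences in each direction, members with a described role, the 3 rows on each side of 60 counts, and the most abundant or called genes of each list. AW112010, Lockd, Rpl41, the processed transcript hosts and the neighbours were added after their values were seen.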

Additional observations from a re-analysis of the deposited data

How the results depend on the processing

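The count of called genes was 49 (36 higher in males), 52 with library size scaling (29 higher in males) and 116 without the filter on low counts. It ran from 23 to 415 when libraries were left out, with 23 without male replicate 3, 32 without female replicate 2 and 415 without male replicate 1. Members called ran from 0 to 3, with 3 only without male replicate 1. With the replicate number as a block, 78 genes were called and 0 members. Same-numbered libraries deviated together with correlations of 0.030, 0.034 and 0.048, each the highest for both libraries, a hint from the data and not the design. The share of counts in snoRNA host members differed by 0.00201 percentage points and by 0.00319 per TMM-scaled library size; for the other members these were -0.0115 and -0.000309. Leaving out libraries gave 0.00117 to 0.00275 and -0.0196 to -0.00501. Of 303 values of single members under other settings 5 reversed: AI839979 at -0.027 and BC002059 at -0.061 with library size scaling, BC002059 at -0.0038 without the filter and -0.048 with limma-voom, and D5Ertd605e at 0.058 with limma-voom. Leaving out a library reversed 15 of 198 values, in 10 members. Their ranges were -0.00085 to 0.36 for Oip5os1, -0.30 to 0.019 for Neat1, -0.34 to 0.0015 for AU020206, -0.069 to 0.30 for Gm47230, -0.011 to 0.29 for AI504432, -0.076 to 0.17 for AI839979, -0.20 to 0.40 for BC002059, -0.74 to 0.21 for Gm43672, -0.30 to 0.17 for D5Ertd605e and -1.08 to 0.15 for Gm17745. The causes were not tested. The 4 host members with males above kept a positive value under every scaling. Below about 120 counts, spread within a sex limits what could be seen.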
